A study of Mus musculus with 8 samples.

Results

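The nuclear genes that encode subunits of complex III, complex IV and ATP synthase, together with cytochrome c, were examined in brown adipose tissue (BAT) of cachectic and control mice. Members were all rows of the count table whose gene name begins with Uqcr, with Atp5, or with Cox followed by a digit from 4 to 8 and a lower-case letter, plus Cyc1 and Cycs, with names marked -ps left out. This rule gave 47 of 56953 genes, made up of 10 genes of complex III and cytochrome c, 19 of complex IV and 18 of ATP synthase. The complex IV genes include Cox6c2, which is annotated as a processed pseudogene. BAT RNA was sequenced from 4 control (CTR) mice, which received PBS, and from 4 mice with cancer-associated cachexia (CAC), which received 3000000 Lewis lung carcinoma (LLC) cells under the skin of the flank. All mice were wild-type C57BL/6J animals, male or female, with the sex of each library not given in the sources used here. They were 8 to 10 weeks old when injected and were monitored for weeks afterwards, so they were older when tissue was taken. The CAC group holds mice in which a tumor mass had formed. The comparison asks how the RNA of the last steps of the respiratory chain differs in BAT of tumor-bearing mice.

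Complex III passes electrons from ubiquinol to cytochrome c, complex IV (cytochrome c oxidase) passes them on to oxygen, and both pump protons across the inner mitochondrial membrane, while ATP synthase lets protons flow back to make ATP. In brown adipocytes UCP1 lets protons return without making ATP, so that respiration is released as heat, and brown fat is known for abundant respiratory chain and little ATP synthase, a feature that has been tied to low expression of the c subunit gene Atp5g1. Several complex IV subunits exist as a general form and as a form found mainly in heart, skeletal muscle and brown fat, among them Cox7a1 and Cox8b in BAT and Cox6a2 in muscle.

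The libraries of CTR mice held 2454493 to 4827956 counts and those of CAC mice 1823167 to 3392538. Levels are given in CPM, the count scaled by the TMM library size of edgeR, and a count of 0 allows a level of up to 3 counts, or 0.661 to 1.62 CPM. Such a limit covers the error of counting alone. The 11 brown adipocyte markers had summed levels of 15473 to 17405 CPM in CTR against 15372 to 17558 CPM in CAC, and none was at 0 in every library. Their log2 fold changes ran from -0.71 (Pparg) to 0.73 (Ppargc1a, called higher), with 2 lower and 2 higher by the unadjusted p. The marker lists of 4 other cell types had higher mean summed levels in CAC. These ranged from 12.0 to 15.2 CPM in CTR and from 174 to 443 CPM in CAC for neutrophils, from 209 to 235 and from 290 to 410 CPM for macrophages, from 6179 to 19269 and from 14637 to 44327 CPM for erythroid cells, and from 1760 to 4174 and from 3629 to 6371 CPM for skeletal muscle fibres. The mean summed levels of endothelial (307 and 286 CPM), fibroblast and progenitor (559 and 543 CPM) and white adipocyte markers (159 and 156 CPM) were slightly lower in CAC than in CTR, within the SD of the libraries (n = 4). Of the 10 neutrophil markers, among them S100a8 and S100a9, 4 were tested, with log2 fold changes from 0.66 to 5.57. The study placed the rise of S100A9 protein in brown adipocytes and reported no significant change in counts of CD45+ cells or neutrophils. The neutrophil sum is thus a level of marker RNA and not a count of cells. The part of the neutrophil, macrophage and erythroid marker signal in the results below was not tested. The tissue was sequenced in bulk, so fewer cells of a type and less RNA per cell cannot be told apart.

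The promoters of 7 members on which the results turn were read from RefSeq (build GRCm38.p6). Cox7c is shown as the member that passed the test, Atp5b as the ATP synthase gene with the smallest p, Cox7a1 with Cox7a2 and Atp5g1 with Atp5g3 as genes of interchangeable subunits, and Cox6a1 as the member with the highest level. Each stretch lies within the 250 bases before the RefSeq start and is cut to bases outside annotated exons, 5′ to 3′ on the strand of the gene. Capitals mark matches on either strand to the letters searched for NRF1 (GCGCA and GCGC with any base between them), for GABP and other ETS factors (CCGGAAG), for YY1 (AAGATGG), for estrogen-related receptors (ERR, TCAAGGTCA) and for the CCAAT box (CCAAT).
Cox7c: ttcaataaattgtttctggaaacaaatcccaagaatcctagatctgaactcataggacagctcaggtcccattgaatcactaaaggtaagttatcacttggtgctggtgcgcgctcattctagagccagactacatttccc
Atp5b: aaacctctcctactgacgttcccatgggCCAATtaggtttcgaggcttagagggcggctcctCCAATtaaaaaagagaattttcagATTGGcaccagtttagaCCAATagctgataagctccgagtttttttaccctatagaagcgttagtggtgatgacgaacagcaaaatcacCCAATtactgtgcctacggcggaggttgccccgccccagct
Cox7a1: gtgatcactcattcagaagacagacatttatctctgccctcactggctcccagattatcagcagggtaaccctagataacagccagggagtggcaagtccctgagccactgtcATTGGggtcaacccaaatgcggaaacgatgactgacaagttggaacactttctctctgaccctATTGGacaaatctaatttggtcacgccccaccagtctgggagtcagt
Cox7a2: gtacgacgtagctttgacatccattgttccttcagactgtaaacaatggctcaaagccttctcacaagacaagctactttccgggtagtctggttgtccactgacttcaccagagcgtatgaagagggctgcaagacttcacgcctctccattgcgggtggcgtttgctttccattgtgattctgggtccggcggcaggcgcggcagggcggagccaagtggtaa
Atp5g1: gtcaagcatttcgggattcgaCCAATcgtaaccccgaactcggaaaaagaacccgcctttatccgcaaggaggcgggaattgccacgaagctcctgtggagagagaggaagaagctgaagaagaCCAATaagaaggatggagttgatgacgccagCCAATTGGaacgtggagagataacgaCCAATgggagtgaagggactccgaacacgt
Atp5g3: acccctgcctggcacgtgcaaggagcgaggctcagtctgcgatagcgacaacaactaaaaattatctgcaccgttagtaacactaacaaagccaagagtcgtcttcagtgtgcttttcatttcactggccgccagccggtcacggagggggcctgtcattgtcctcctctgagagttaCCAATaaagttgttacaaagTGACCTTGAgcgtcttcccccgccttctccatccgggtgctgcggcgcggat
Cox6a1: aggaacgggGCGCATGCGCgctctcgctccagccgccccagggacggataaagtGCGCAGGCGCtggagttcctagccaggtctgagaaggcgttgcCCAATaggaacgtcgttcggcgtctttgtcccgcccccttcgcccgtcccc
The stretches are, in this order, chr13:86046905-86047045 on the minus strand, chr10:128083057-128083272 on the plus strand, chr7:30183921-30184143 on the plus strand, chr9:79759879-79760103 on the minus strand, chr11:96075671-96075881 on the minus strand, chr2:73911327-73911576 on the minus strand and chr5:115348982-115349129 on the minus strand. The Cox6a1 stretch holds a pair of NRF1 matches and a CCAAT match, Cox7a1, Atp5b and Atp5g1 hold repeated CCAAT matches, of which a pair overlap in Atp5g1, and Atp5g3 holds the ERR letters. The Cox7c and Cox7a2 stretches hold none of the 5 searched motifs. Over the full 250 bases, the NRF1 letters were found in 5 of the 34 members with a RefSeq promoter (14.7%) and in 3.74% of all 32851 promoters, and the ETS letters in 8 of 34 (23.5%) against 6.91%. CCAAT was found in 19 of 34 (55.9%) against 33.8%, YY1 in Atp5j alone (2.94% against 4.49%) and ERR in Atp5g3 alone (2.94% against 0.387%). A member counted when any of its promoters matched, whereas the share of all promoters was taken over single promoters. The percentages are therefore not in the same unit. The 11 tested members with NRF1 or ETS letters had a median log2 fold change of -0.05 between CAC and CTR, and the 21 tested members with neither had a median of -0.14. A match is a description of these letters and not evidence of binding.

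Across the module the levels leaned lower in CAC, but by little. Of the 43 members that passed the low-count filter, 35 had a log2 fold change (CAC minus CTR) below 0, against 50.0% of the 9876 genes tested, and the median over these members was -0.11, against -4.67e-05 over all genes tested. With edgeR's quasi-likelihood test and Benjamini-Hochberg adjustment over all genes, 1 member fell (Cox7c) and 0 rose, where 0.932% of all genes tested were called, 0.192% lower and 0.739% higher. By the unadjusted p of edgeR, 15 members (34.9%) lay below 0.05 with a lower level in CAC and 0 with a higher level, where the background was 5.93% lower and 7.01% higher. In 11 members every CAC library lay below every CTR library, which held for 3.40% of all genes tested, and no member showed the opposite order, which held for 3.64%. These members were Cox7c, Cox5a, Cox7b, Cox8b, Cox7a1, Cox6b1, Atp5b, Atp5md, Atp5g3, Cyc1 and Uqcrc2. The count of 15 dropped to 7 without CTR replicate 1 or without CAC replicate 2 and to 9 without CTR replicate 4. The 7 without CTR replicate 1 were Cox7c, Cox5a and Cox7b of complex IV, Uqcrb and Cyc1 of complex III, and Atp5b and Atp5md. Without a low-count filter 4 members were called, and all genes called were 351 against 92 with the filter.

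The members held 4.18% to 4.34% of all counts in the CTR libraries and 3.76% to 4.13% in the CAC libraries, so the groups did not overlap in this share. On the TMM scale their summed level overlapped, from 41340 to 44534 CPM in CTR and from 37386 to 43526 CPM in CAC. Complex IV genes summed to 18349 to 19725 CPM in CTR against 16145 to 18542 CPM in CAC, ATP synthase genes to 13694 to 14608 and 12692 to 14501 CPM, and complex III with cytochrome c to 9298 to 10202 and 8549 to 10483 CPM. In each library the median deviation of the members from the CTR mean was taken on the log2 scale. It ranged from -0.02 to 0.01 over the CTR libraries and from -0.20 to -0.04 over the CAC libraries.

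**Figure D1:**
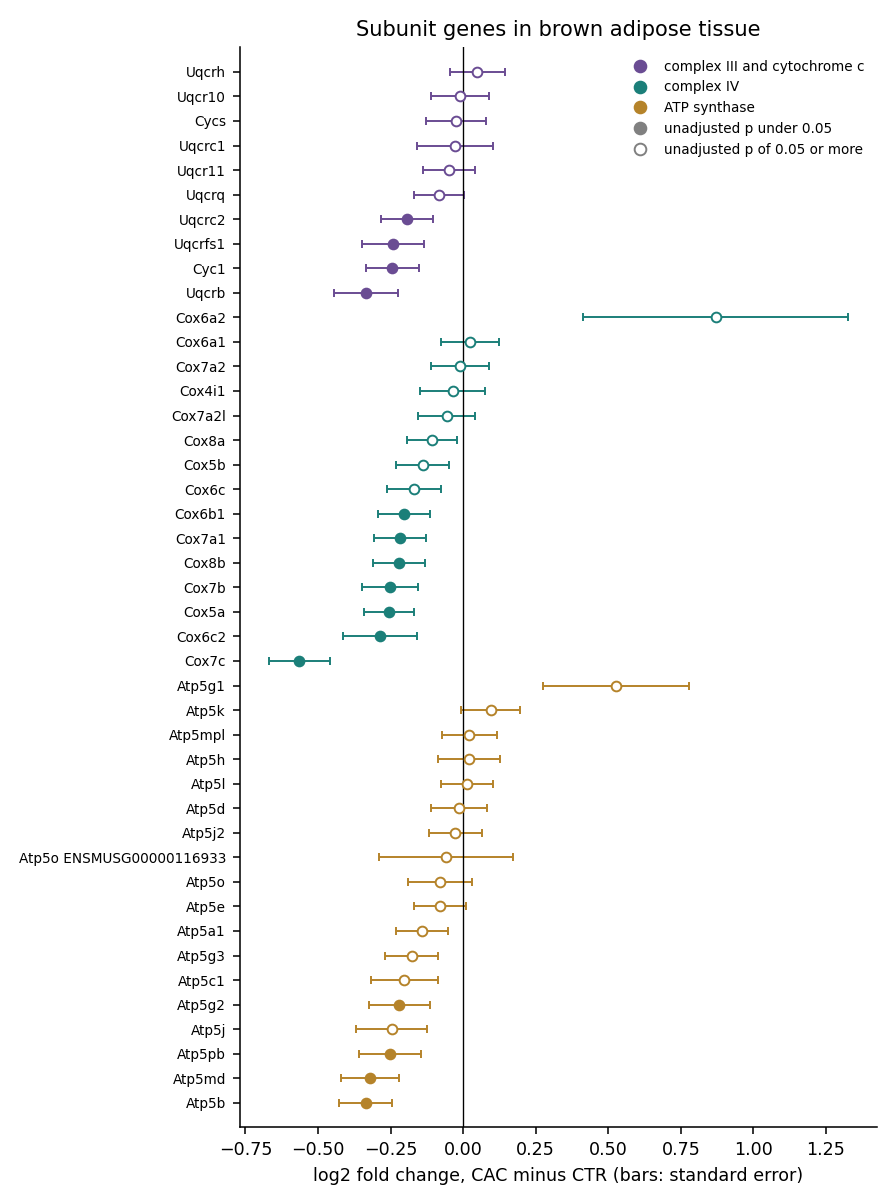
Log2 fold change of CAC against CTR (x axis) for the 43 members tested (rows), coloured by complex, with bars for the standard error of edgeR's fit and filled points for an unadjusted p under 0.05. All 15 filled points lie below 0, Cox7c is lowest at -0.56, and Cox6a2 (0.87) and Atp5g1 (0.53) lie highest with the widest bars.

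In complex III and cytochrome c, 9 of the 10 genes had a log2 fold change below 0, 4 of them with an unadjusted p under 0.05 and none with an adjusted p under 0.05 in edgeR's test, and the median was -0.07. Cyc1 and Uqcrfs1, the electron carriers of the complex that nuclear genes encode, were among the 4. Cyc1, which encodes the heme protein cytochrome c1, had 358, 349, 348 and 351 CPM in the CTR libraries and 323, 281, 271 and 314 CPM in the CAC libraries. Every CAC library of Cyc1 was thus below the narrow CTR range, with means of 351 ± 4.36 and 297 ± 25.1 CPM (SD, n = 4) and a log2 fold change of -0.24 with a standard error (SE) of 0.0920 (edgeR adjusted p = 0.25). Uqcrfs1, the Rieske iron-sulfur protein that takes the first electron from ubiquinol, had 355, 363, 296 and 347 CPM in CTR against 288, 236, 299 and 328 CPM in CAC. CTR replicate 3 of Uqcrfs1 lay below CAC replicates 3 and 4, so its groups overlapped, and without CAC replicate 2 its log2 fold change was -0.16, with an unadjusted p above 0.05 (all libraries: log2 fold change -0.24, edgeR adjusted p = 0.334).

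The core protein Uqcrc2, which stabilises the complex on its matrix side, had 380, 355, 337 and 372 CPM in CTR against 314, 309, 318 and 322 CPM in CAC. All 4 CAC libraries of Uqcrc2 lay in a narrow band under the CTR range (log2 fold change -0.19, edgeR adjusted p = 0.353). Its partner core protein Uqcrc1 had means of 300.3 ± 33.6 and 295 ± 64.2 CPM (SD, n = 4) with a log2 fold change of -0.03, which was -0.17 without CAC replicate 1 and 0.085 without CAC replicate 4. Among the small subunits Uqcrb had 502, 479, 453 and 522 CPM in CTR against 397, 308, 379 and 466 CPM in CAC. CAC replicate 4 was the only CAC library of Uqcrb within the CTR range, and its log2 fold change of -0.33 had the smallest p of the complex (edgeR adjusted p = 0.161). The other small subunits, Uqcrq (-0.08), Uqcr11 (-0.05), Uqcr10 (-0.01) and Uqcrh (0.05), had log2 fold changes smaller than their standard errors. Cycs, the mobile cytochrome c, was at 544 ± 23.2 CPM in CTR against 536 ± 81.9 CPM in CAC (SD, n = 4) with a log2 fold change of -0.02.

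In complex IV, 13 of the 15 genes tested had a log2 fold change below 0, 7 of them with an unadjusted p under 0.05, and the median was -0.17. The pseudogene Cox6c2 is counted in the 15, the 13 and the 7. Cox7c (ENSMUSG00000017778.15) was the member that fell. It encodes a small subunit with a single pass through the membrane and lies at chr13:86044816-86046904 of GRCm38 on the minus strand. Its level was 876, 896, 735 and 689 CPM in the CTR libraries and 471, 515, 570 and 603 CPM in the CAC libraries, from 872 to 3363 reads per library. No CAC library reached the lowest CTR library, and the means were 799 ± 102 and 540 ± 58.5 CPM (SD, n = 4), so that the log2 fold change was -0.56 with an SE of 0.106 (edgeR adjusted p = 0.00998). Without CTR replicate 1 the log2 fold change of Cox7c was -0.52 and the edgeR adjusted p was 0.057, and the call held in the other 7 fits that left out a library.

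The processed copy Cox7c-ps1, which was kept out of the members by its name, was at 43.7 CPM in CTR against 30.0 CPM in CAC, which gave -0.52 in log2 fold change (edgeR adjusted p = 0.0844). When the reads of Cox7c-ps1 were added to Cox7c, the log2 fold change was -0.56 with an edgeR adjusted p of 0.0102. The decimal parts of the library counts summed to 0.0221% of the Cox7c count. Split reads can add up to whole numbers, so this does not measure the share of reads split between genes. The annotated gene Gm22574 lies within the span of Cox7c on the same strand.

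Of the remaining general forms, Cox5a, a matrix-side subunit, had 486, 477, 495 and 471 CPM in CTR against 408, 413, 381 and 415 CPM in CAC. The gap between the groups of Cox5a was wider than the range within either (log2 fold change -0.26, SE 0.0862, edgeR adjusted p = 0.181). Cox7b, a small membrane subunit encoded on chromosome X, had 918, 918, 934 and 874 CPM in CTR against 761, 645, 784 and 867 CPM in CAC. CAC replicate 4 of Cox7b nearly reached the lowest CTR library (log2 fold change -0.25, edgeR adjusted p = 0.253). Cox6b1, which sits on the intermembrane side and links the monomers of the enzyme, was at 1612 ± 49.4 CPM in CTR against 1398 ± 119 CPM in CAC (SD, n = 4), with no overlap (log2 fold change -0.21, edgeR adjusted p = 0.326). Cox6c (-0.17), Cox5b (-0.14), Cox8a (-0.11), Cox4i1 (-0.04), Cox7a2 (-0.01) and Cox6a1 (0.02) had an unadjusted p above 0.05 in edgeR's test. Cox7a2l, whose product acts in joining complexes III and IV, had a log2 fold change of -0.06. Cox6c2 (-0.29, edgeR adjusted p = 0.341) is annotated as a processed pseudogene although its name carries no -ps. The decimal parts of its library counts summed to 0.206% of its count, which again is not the share of split reads.

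**Figure D2:**
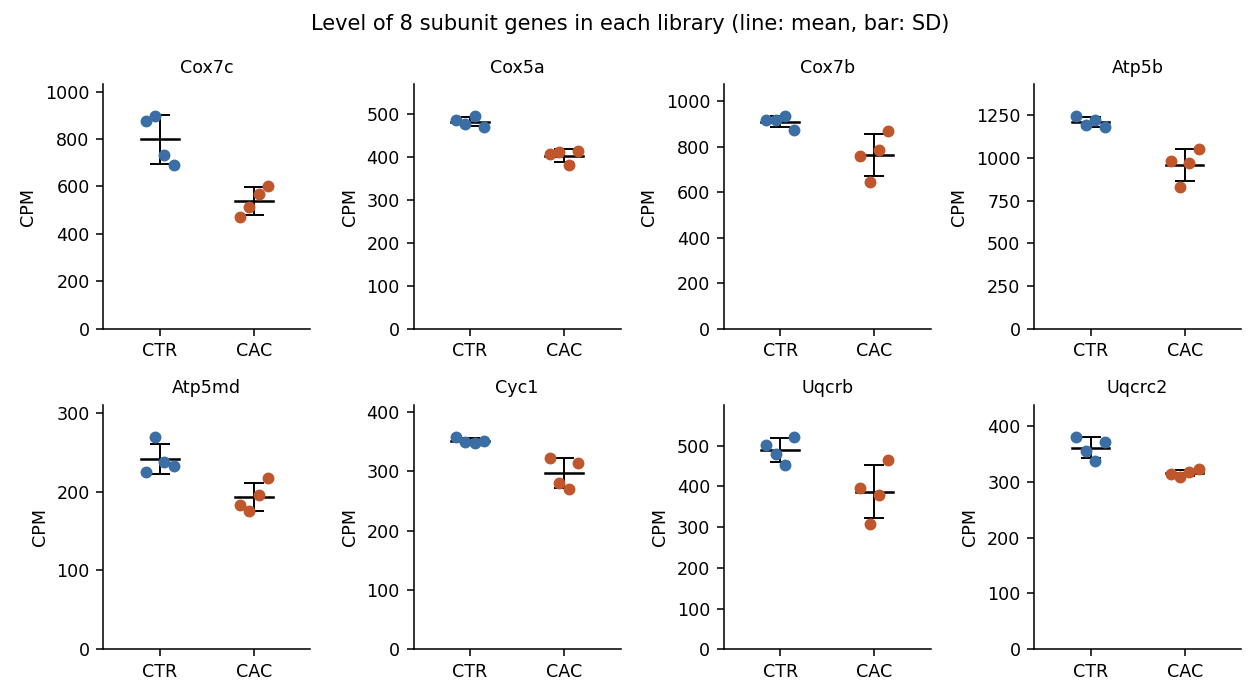
Level in CPM (y axis, from 0) of 8 members in each library (points) of the CTR and CAC groups, with the group mean as a line and the SD as a bar (n = 4 per group). The CAC points lie below all CTR points in every panel except Uqcrb, in which CAC replicate 4 (466 CPM) lies above the lowest CTR library (453 CPM).

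The tissue-specific forms of complex IV differed widely in level. Per kilobase of annotated exon, Cox7a1 had 2205 CPM in CTR against 1895 CPM in CAC, beside 2086 and 2070 CPM for its general form Cox7a2, and Cox8b had 3015 and 2586 CPM beside 2371 and 2199.9 CPM for Cox8a. Cox6a2 had 179 and 323 CPM per kilobase beside 5500 and 5593 CPM for Cox6a1, the highest level of all members. Cox7b2 and Cox8c had 0 counts in every library, Cox4i2 had at most 2 counts in any library, and Cox6b2 had 2 to 8 counts, so these 4 members were not tested. Whether reads covered whole transcripts is not given in the sources used here, and a level per kilobase depends on it. Without the division by length, Cox7a1 and Cox7a2 had CTR means of 1180 and 1969 CPM, and Cox8b and Cox8a 1085 and 1468 CPM. The general form was then the higher in each of these pairs, the reverse of the CTR order per kilobase.

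Cox7a1 had 1201, 1099, 1196 and 1224 CPM in CTR against 1081, 936, 951 and 1089 CPM in CAC. CAC replicates 1 and 4 of Cox7a1 came close to the lowest CTR library without reaching it (log2 fold change -0.22, SE 0.0900, edgeR adjusted p = 0.292). Cox8b had 1100, 1024, 1037 and 1181 CPM in CTR against 962, 873, 882 and 1006 CPM in CAC. The groups of Cox8b again did not overlap (log2 fold change -0.22, SE 0.0902, edgeR adjusted p = 0.286). Cox6a2 had 63.3, 150, 202 and 70.6 CPM in CTR against 134, 212, 286 and 247 CPM in CAC, which gave a log2 fold change of 0.87 with a standard error of 0.456 (edgeR adjusted p = 0.5). The CTR libraries of Cox6a2 differed among themselves by more than the group means did.

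A ratio of counts within a library does not depend on the scaling between libraries, so each tissue-specific form was set against its general form as a log2 ratio. The 1 added to each count makes the ratio depend on depth where counts are few. This holds for Cox6b2, which had 2 to 8 counts and means of 1.72 CPM in CTR and 1.74 CPM in CAC. For Cox7a1 over Cox7a2 the mean log2 ratio was -0.74 ± 0.11 over the CTR libraries and -0.94 ± 0.20 over the CAC libraries (SD, n = 4), a difference of -0.20 (exact two-sided permutation p = 0.2). For Cox8b over Cox8a it was -0.44 ± 0.13 and -0.55 ± 0.09 in the same order, a difference of -0.11 (SD, n = 4, exact two-sided permutation p = 0.229). For Cox6a2 over Cox6a1 the difference was 0.95 (exact two-sided permutation p = 0.171), and for the nearly undetected Cox6b2 over Cox6b1 it was 0.30 (exact two-sided permutation p = 0.343). Without CTR replicate 4 the difference was -0.071 for Cox8b over Cox8a and 0.18 for Cox6b2 over Cox6b1, and without CTR replicate 2 it was -0.17 for Cox8b over Cox8a. The 3 c subunit genes of ATP synthase gave another 2 ratios. Atp5g1 over Atp5g3 was -3.57 ± 0.47 in CTR against -2.87 ± 0.32 in CAC, a difference of 0.70 (SD, n = 4, exact two-sided permutation p = 0.0571), and Atp5g2 over Atp5g3 differed by -0.05 (exact two-sided permutation p = 0.657). Over these 6 ratios the Benjamini-Hochberg adjusted exact permutation p ranged from 0.343 to 0.657, and 0.0286 is the smallest unadjusted p that 4 against 4 libraries allow. After adjustment over 6 ratios, a lone ratio at that smallest p would not pass 0.05. The adjusted test could therefore not call a shift in a single pair.

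**Figure D3:**
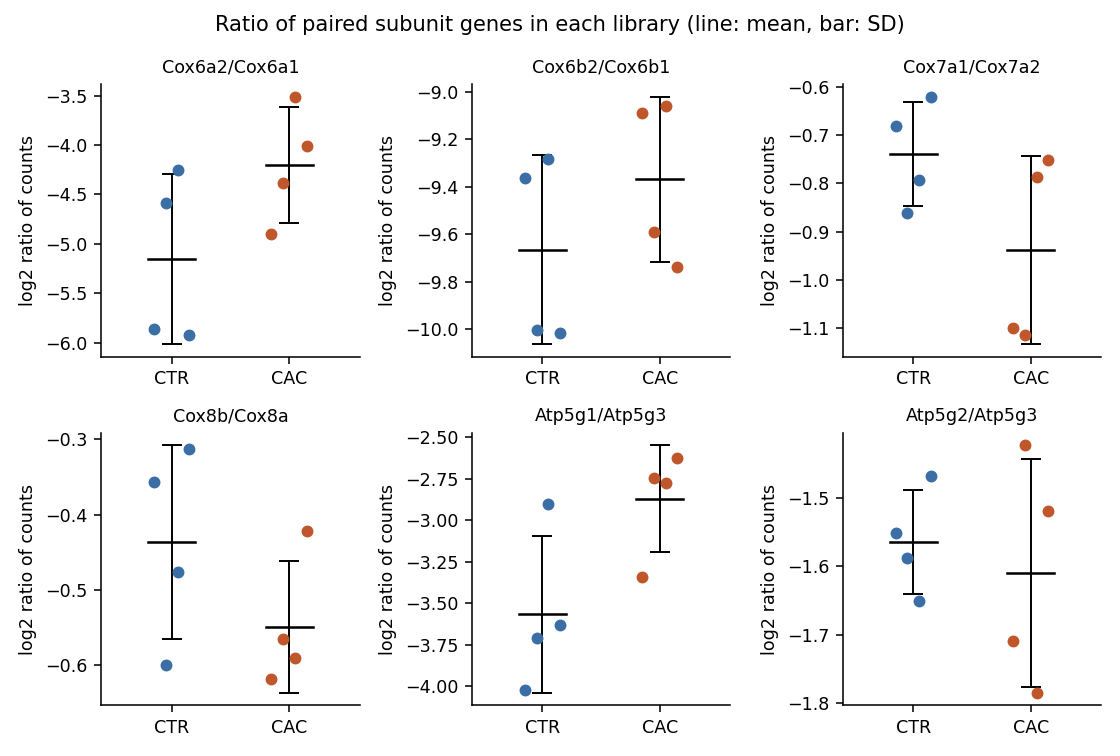
Log2 ratio of counts (y axis, 1 added to each count) for 6 pairs of genes that encode forms of the same subunit, in each CTR and CAC library (points), with the mean as a line and the SD as a bar (n = 4). The groups overlap in all 6 panels, and the highest CTR value for Atp5g1 over Atp5g3 belongs to CTR replicate 3 (-2.90).

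In ATP synthase, 13 of the 18 genes had a log2 fold change below 0, 4 of them with an unadjusted p under 0.05 and none with an adjusted p under 0.05 in edgeR's test, and the median was -0.08. All 5 genes of the catalytic head and its central stalk were below 0. Atp5b, the beta subunit that carries the catalytic sites, had 1243, 1194, 1224 and 1178 CPM in CTR against 981, 830, 970 and 1054 CPM in CAC. The lowest CTR library of Atp5b lay above the highest CAC library (log2 fold change -0.33, SE 0.0914, edgeR adjusted p = 0.0881). Its partner in the head, the alpha subunit Atp5a1, had a log2 fold change of -0.14, followed by the stalk subunits Atp5c1 (-0.20), Atp5e (-0.08) and Atp5d (-0.01). Without CAC replicate 2 the value of Atp5c1 was -0.086.

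Among the small membrane subunits Atp5md, a protein that helps the enzyme to dimerise, had 226, 270, 237 and 233 CPM in CTR against 183, 176, 196 and 217 CPM in CAC. Every CAC library of Atp5md lay below the CTR range (log2 fold change -0.32, SE 0.100, edgeR adjusted p = 0.143). Atp5mpl, Atp5l and Atp5j2 had log2 fold changes of 0.02, 0.01 and -0.03. Atp5k, another dimer subunit, was at 2650 ± 240 CPM in CTR against 2831 ± 359 CPM in CAC (SD, n = 4) with a log2 fold change of 0.09. CAC replicate 1 of Atp5k had 3347 CPM and the other CAC libraries 2518 to 2754 CPM, and the log2 fold change was 0.01 without CAC replicate 1 and 0.16 without CTR replicate 4. In the peripheral stalk, which holds the head in place, Atp5pb had 308, 288, 291 and 290.2 CPM in CTR against 208, 224, 255 and 298 CPM in CAC. CAC replicate 4 of Atp5pb lay within the CTR range (log2 fold change -0.25, edgeR adjusted p = 0.31). Atp5j had -0.25 in log2 fold change (edgeR adjusted p = 0.404), which was -0.16 without CAC replicate 2. Atp5o was at -0.08, a further gene annotated as Atp5o (ENSMUSG00000116933.2) at -0.06 and Atp5h at 0.02.

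The c ring, through which protons pass, is built from a mature protein that 3 genes encode. Atp5g3 contributed the most reads, with 385, 429, 400 and 374 CPM in CTR against 334, 330, 372 and 366 CPM in CAC. The groups of Atp5g3 did not overlap, by a small margin (log2 fold change -0.18, edgeR adjusted p = 0.423). Atp5g2 was at 134 ± 6.56 CPM in CTR against 115 ± 12.3 CPM in CAC (SD, n = 4) with -0.22 in log2 fold change (edgeR adjusted p = 0.381). Atp5g1 had 23.4, 32.5, 53.1 and 30.0 CPM in CTR against 32.4, 48.9, 54.2 and 59.3 CPM in CAC. CTR replicate 3 of Atp5g1 lay among the CAC libraries and CAC replicate 1 among the CTR libraries (log2 fold change 0.53, SE 0.252, edgeR adjusted p = 0.42). Without CTR replicate 3 the log2 fold change of Atp5g1 was 0.77 and the edgeR adjusted p was 0.032.

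Skeletal muscle markers had a higher mean summed level in CAC, as did Cox6a2, the muscle form, and Atp5g1, neither of which passed the test. All 16 muscle markers were above 0 in log2 fold change, 9 of them with an unadjusted edgeR p under 0.05. Only Actn3 was called among them, and it rose by 1.63 on the log2 scale (edgeR adjusted p = 0.0148). Their summed level was 1869, 3292, 4174 and 1760 CPM in CTR replicates 1 to 4 and 3629, 5164, 6371 and 5919 CPM in CAC replicates 1 to 4. Within CTR, the libraries with the higher muscle sum (replicates 2 and 3) were also those with the higher Cox6a2 and Atp5g1, and within CAC replicate 1 had the lowest value of all 3 quantities. The orders differed elsewhere. Atp5g1 was highest in CAC replicate 4 (59.3 CPM) and the muscle sum in CAC replicate 3 (Atp5g1 at 54.2 CPM). CTR replicate 1 had a higher muscle sum than CTR replicate 4 but less Cox6a2 (63.3 against 70.6 CPM) and less Atp5g1 (23.4 against 30.0 CPM). With the log2 muscle sum as a covariate, a fit chosen after seeing the data, the log2 fold change was -0.34 for Cox6a2 (edgeR adjusted p = 0.525) and -0.23 for Atp5g1 (edgeR adjusted p = 0.806), in place of 0.87 and 0.53. In that fit Cox7c was at -0.69 (edgeR adjusted p = 0.141), Cox8b at -0.10 and Cox7a1 at -0.14, the median over the members was -0.10, and 0 members were called, with 6 members lower and 0 higher by the unadjusted p. These were Cox7c, Atp5b, Atp5md and Cox7b, which are 4 of the 15 without the covariate, together with Atp5g3 and Cox6a2 itself. The covariate fit called 21 of all genes, against 92 without it. The muscle sum largely followed the group, from 1760 to 4174 CPM in CTR and from 3629 to 6371 CPM in CAC. The fit can thus separate muscle sum and group only in part, and the cause of the lost calls was not tested.

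**Figure D4:**
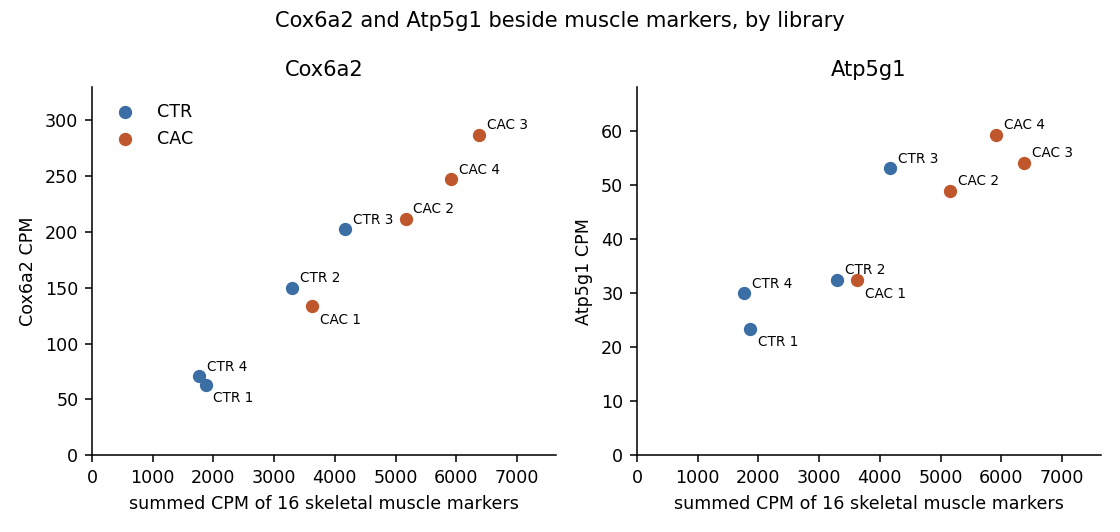
Level of Cox6a2 (left) and Atp5g1 (right) in CPM (y axis) against the summed level of 16 skeletal muscle markers in CPM (x axis), with each point a library labelled by group and replicate. CTR replicates 1 and 4 hold the lowest muscle sums (1869 and 1760 CPM) and the lowest Cox6a2 (63.3 and 70.6 CPM), and CAC replicate 3 holds the highest of both (6371 and 286 CPM).

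The members were also described by read number, and were split at their median of 749 CPM, used here as the number of reads behind a value and not as a level between genes. Of the 22 members at or above it, 5 were lower with an unadjusted edgeR p under 0.05 and the median log2 fold change was -0.04, and 9.71% of the 103 genes tested in the same range, members included, were lower in that way. Of the 21 members below it, 10 were lower in that way and the median was -0.20, and the share was 6.77% of 6031 genes in their range. Across the 43 genes Spearman's rho between mean CPM and log2 fold change was 0.32, a description over genes that share the same 8 libraries.

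**Figure D5:**
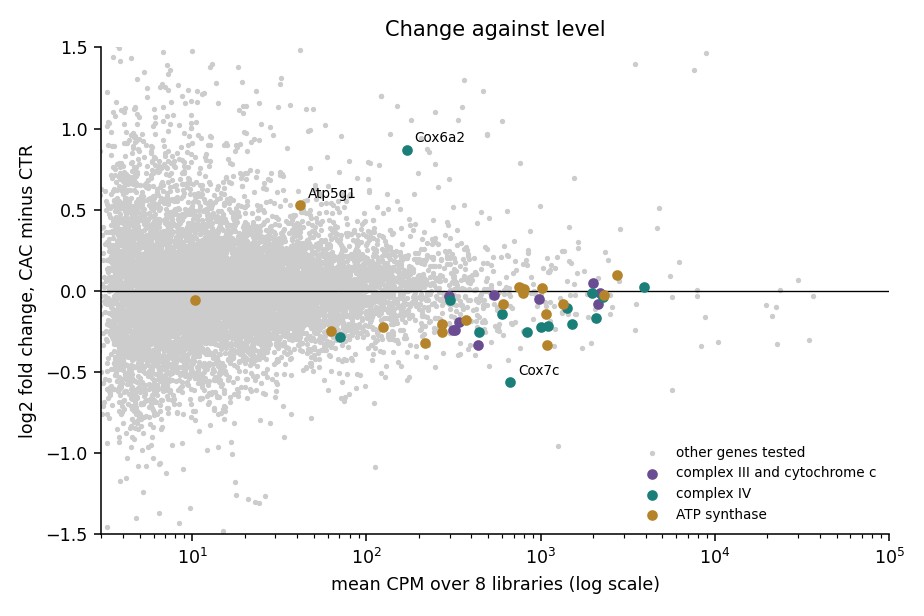
Log2 fold change of CAC against CTR (y axis) against mean CPM over the 8 libraries (x axis, log scale) for all genes tested (grey, 55 genes outside the axes) and for the members, coloured by complex. Most members lie slightly under 0 above 100 CPM, with Cox7c below and Cox6a2 and Atp5g1 above the band.

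Among the other genes of the pathway, 111 were tested and 3 were called (2.70%, against 0.932% of all genes), Cmc1 and Ndufa4 lower and Ppargc1a higher. Of the 6 subunits of these complexes encoded in mitochondrial DNA, 5 were below 0, with a median log2 fold change of -0.20. The complex IV subunit mt-Co2 (-0.34, edgeR adjusted p = 0.103) and mt-Cytb, the only complex III subunit encoded there (-0.30, edgeR adjusted p = 0.151), had an unadjusted p under 0.05. Of 36 assembly genes tested, 27 were below 0, 6 were lower and 1 higher by the unadjusted p, and 1 was called. This was Cmc1, a chaperone in the early assembly of complex IV, which had 19.4, 20.5, 17.8 and 19.4 CPM in CTR against 10.8, 11.2, 10.5 and 12.2 CPM in CAC. Its groups were far apart (log2 fold change -0.79, SE 0.17, edgeR adjusted p = 0.0227), and Cox17, which carries copper to complex IV, was at -0.69 (edgeR adjusted p = 0.0658). Cmc1 lost its call without CTR replicate 1, 2 or 4 and without CAC replicate 2 or 3, with edgeR adjusted p of up to 0.0856.

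All 4 genes of complex II were below 0, with Sdhc at -0.46 (edgeR adjusted p = 0.101) and Sdhd at -1.34 (edgeR adjusted p = 0.28). Sdhd had 17.3, 24.2, 7.05 and 6.39 CPM in the CTR libraries, and its log2 fold change ranged from -0.87 without CTR replicate 2 to -1.61 without CTR replicate 4 (edgeR adjusted p = 0.0321 in the latter). With no filter on low counts its edgeR adjusted p was 8.16e-05. Of the 48 tested genes with names beginning with Nduf, most of which encode complex I, 39 were below 0, 13 of them with an unadjusted p under 0.05, and the median was -0.12. The Nduf gene that was called was Ndufa4, whose product was first assigned to complex I and later to complex IV. It had 159, 143, 137 and 168 CPM in CTR against 80.5, 95.7, 115 and 126 CPM in CAC, with no overlap (log2 fold change -0.53, edgeR adjusted p = 0.0443), and it lost the call without CTR replicate 1, 2 or 4 and without CAC replicate 1, 2 or 3, with edgeR adjusted p of up to 0.131. Ndufa8 was at -0.38 (edgeR adjusted p = 0.0559).

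Of the 17 tested regulators of nuclear respiratory genes, 9 were above 0 and 8 below, and 3 were higher by the unadjusted edgeR p. Ppargc1a, the coactivator that drives mitochondrial gene expression in brown fat, was the regulator that rose, from 51.8 ± 10.4 to 86.5 ± 16.9 CPM (SD, n = 4) or 0.73 on the log2 scale (edgeR adjusted p = 0.0201). CAC replicate 2 of Ppargc1a, at 65.9 CPM, lay just below CTR replicate 4, at 66.4 CPM, and the other 3 CAC libraries lay above every CTR library. Its call was lost without CTR replicate 1 or 2 and without CAC replicate 3, with edgeR adjusted p of up to 0.0877. Ppard (0.58, edgeR adjusted p = 0.32) and Ppara (0.50, edgeR adjusted p = 0.381) were the others. The factors whose letters were searched in the promoters, Nrf1 (0.18), Gabpa (0.06), Yy1 (-0.09), Esrra (-0.14) and Esrrg (-0.06) all had an unadjusted edgeR p of at least 0.442.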

How the data were processed

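BAT RNA of 8 mice (4 CTR, 4 CAC) was sequenced. Per the labels and the study's methods, the authors checked reads with FastQC 0.11.9, aligned them to mm10 with HISAT2 2.2.1 and counted them with the multi-mapping option of featureCounts. The strand setting is not given in the sources used here, and 19 of the 47 members overlap another annotated gene. The authors deposited expected counts, which hold fractions of reads, for 56953 genes, and these were rounded. A deposited table of 24792 genes holds a signal made with DESeq2, and 99.996% of its values equal the whole part of the count divided by 1 size factor per library, within a relative tolerance of 1e-06.

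Counts were analysed with edgeR 4.0.16 in R 4.3.3 (filterByExpr, TMM, robust quasi-likelihood fit, CAC minus CTR, no covariate, Benjamini-Hochberg over 9876 genes, threshold 0.05). The procedure was tested on simulated data, with the outcome not reported here. Ratios used counts plus 1, for pairs with a mean of at least 5 counts in both genes, and were compared by an exact two-sided permutation test (70 assignments). Members and gene lists were chosen with earlier results of these data known. Genes named are called members, the 5 with the smallest p and the 2 at each end of the fold change in each complex with at least 5 CPM, genes of the isoform pairs, Cyc1 and Cycs, and from each other list the called genes and the 2 with the smallest p. Further members, regulators and Actn3 were named after their values were seen. All 47 gene IDs matched GENCODE M21 without the version. Alternatives were DESeq2 1.42.0, other normalizations and filters, limma 3.58.1, a replicate block, each library left out and other pseudocounts. Each replicate is a separate library, so p-values measure the spread between libraries. Plots were made with matplotlib 3.10.9 in Python 3.11.15. Protein measurements were not analysed here.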

Additional observations from a re-analysis of the deposited data

Results flagged for a closer look

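Among 92 groups of 4 libraries that were checked for a library far from the other 3, 2 were flagged, where chance flags about 1 in 20 groups (4.6 of 92). The summed brown adipocyte markers reached 17405 CPM in CTR replicate 4, against 15473 to 15580 CPM in the other 3 CTR libraries. The summed macrophage markers were at 209 CPM in CTR replicate 3, against 233 to 235 CPM in the other 3. No group of libraries was flagged for a member chosen by the naming rule.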

How the results depend on the processing

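Cox7c was called lower in every one of the 20 alternative fits except without CTR replicate 1 and with the muscle markers as a covariate, and its log2 fold change ranged from -0.62 to -0.50 over the fits that left out a library. The number of members called was 1, and became 2 with DESeq2 (Atp5b added), 4 without a low-count filter (Atp5b, Uqcrb and Atp5g1 added) and 0 with the muscle covariate. It ranged from 0 (without CTR replicate 1) to 2 (without CTR replicate 3, Atp5g1 added) when a library was left out. All genes called were 92 as reported, 112 with DESeq2, 351 without a low-count filter and 21 with the muscle covariate. Without CTR replicate 1 they were 42, and without CTR replicate 3 they were 135. The count of 15 members lower by the unadjusted p became 6 with the muscle covariate (4 of the 15, plus Atp5g3 and Cox6a2) and 7 (without CTR replicate 1 or CAC replicate 2) to 16 with a library left out, and was 17 with upper quartile factors and 19 without a low-count filter. The members higher by the unadjusted p, 0 as reported, were 1 with DESeq2 and without a filter, 2 with limma-trend, and 0 to 2 with a library left out. The other pathway genes called, 3 as reported (92 of all genes), were 5 with DESeq2 (112) and 14 without a filter (351). They were 1 with the muscle covariate (21) and, with a library left out, from 0 without CTR replicate 1 (42) to 5 without CTR replicate 3 (135). The cause of these shifts was not tested. The median of the members stayed between -0.14 and -0.10 in all 20 fits.

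Equal replicate numbers did not pair the libraries (correlations of deviations 0.03, -0.02, 0.03 and 0.04). With the replicate block, 1 member was called, 12 were lower and 2 higher by the unadjusted p (Cox6a2 and Atp5g1), and all genes called were 140 against 92. Values near 0 changed sign, in 13 members with a library left out. Cox6a1 was at -0.0052 without a filter and, over fits without 1 library, between -0.040 and 0.10. With a library left out, Cox7a2 ranged from -0.096 to 0.063, Cycs from -0.13 to 0.036, Uqcrh from -0.021 to 0.10 and the Atp5g2 to Atp5g3 ratio from -0.11 to 0.014. Over the same fits Atp5o (ENSMUSG00000022956.12) ranged from -0.16 to -0.0024, Atp5e from -0.12 to -0.038 and Uqcrq from -0.12 to -0.052. Uqcr11 ranged from -0.083 to -0.0039 and Cox7a2l from -0.12 to -0.0042. With the muscle covariate, which largely followed the group, 11 members changed sign. Among them were Cox6a2 (-0.34), Atp5g1 (-0.23), Uqcrc1 (0.32), Uqcr10 (0.13), Uqcr11 (0.10), Cycs (0.099), Cox4i1 (0.074) and Cox7a2 (0.058). Cmc1, Ndufa4 and Ppargc1a also lost the call with the muscle covariate, Cmc1 with DESeq2 and Ndufa4 with limma-trend. Depth limits the members under 1.62 CPM, among them Cox4i2, Cox7b2 and Cox8c.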
